A study of Mus musculus with 20 samples.

Results

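The effect of losing Zdhhc9 on the transcripts of the mouse optic nerve was examined in 9 libraries, 5 from nerves labelled Zdhhc9 knockout and 4 from nerves labelled wild type, out of 20 libraries in the series. The libraries were chosen by the genotype and tissue that their labels give, and no measured value entered the choice. Of 46517 genes in the deposited table, 15556 passed a filter on low counts in these 9 libraries and were tested. The other 11 libraries came from corpus callosum of the same 2 genotypes and serve for values set beside those of the nerve, for the test of a difference between the tracts and for an alternative fit of all 20 libraries. The labels call the animals knockouts, whereas the series' design text speaks of knockdown. The labels used here do not give the strain, age, sex, allele or any Cre driver, nor what the wild-type mice share with the knockouts. Each library carries its own sample number, but nothing states that 1 library is 1 animal or that nerves were not pooled, so the p-values measure the spread between these libraries. Nerves were frozen after dissection and stranded libraries were prepared from polyadenylated RNA.

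ZDHHC9 belongs to the DHHC family of palmitoyltransferases, enzymes of the secretory pathway that attach the fatty acid palmitate to cysteines and so anchor proteins such as Ras GTPases to membranes. It works with a partner protein, GOLGA7, and the gene lies on the X chromosome, where human variants cause intellectual disability. The optic nerve holds the axons of retinal ganglion cells, myelinated by oligodendrocytes and accompanied by astrocytes, microglia, vessels and a meningeal sheath, while the neuronal cell bodies lie in the retina. Its messenger RNA is therefore mostly glial, and many myelin proteins made by its oligodendrocytes are themselves palmitoylated.

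Only 2 genes passed the test, and both were lower in the knockout nerves: Zdhhc9 itself and Apln, which encodes the secreted peptide apelin and lies near Zdhhc9 on the X chromosome. They are 0.0129% of the 15556 genes tested with edgeR's quasi-likelihood test at a Benjamini-Hochberg adjusted p under 0.05, the threshold for a gene that is said below to be called. No gene was called higher, with 441 genes (2.83%) higher and 411 (2.64%) lower at an unadjusted p under 0.05, together 852 or 5.48% of all genes. DESeq2, fitted to the same counts, called 35 genes, 14 higher and 21 lower, among them these 2. Levels below are CPM, counts scaled to the library total and corrected by TMM factors, and differences are log2 fold changes of knockout over wild type with their standard error (SE). The median of all 15556 log2 fold changes was 0.01, 47.2% of them were negative, and the median SE was 0.13. For 86.5% of genes the 95% interval of the difference lay within 1 log2 unit of 0, and for 59.7% within 0.5. These shares do not give the size of difference that could be called after adjustment. Gabrr2 at 1.22 and Bcat1 at -0.95, for example, were not called by edgeR in these 9 libraries.

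**Figure D1:**
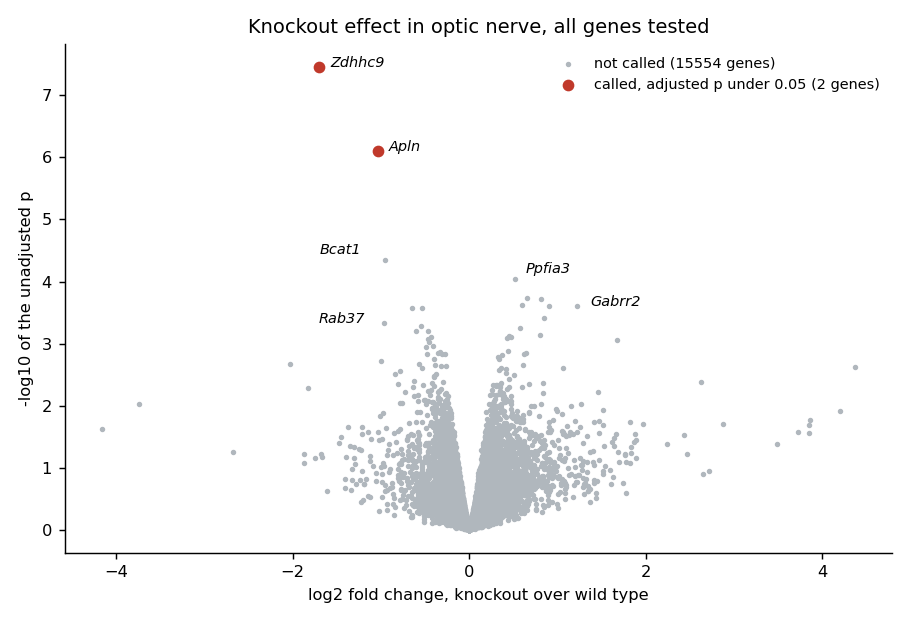
Log2 fold change of knockout over wild-type optic nerve (x axis) against the negative log10 of the unadjusted p from edgeR's quasi-likelihood test (y axis), 1 point per gene for 15556 genes. The 2 called genes, Zdhhc9 and Apln, lie on the left above all others, and no called gene lies on the right.

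Library totals ran from 18837907 to 25866142 estimated counts in the knockout group and from 22299837 to 26095622 in the wild-type group. Total count, number of genes with 10 or more counts, share of the 10 most abundant genes and scaling factor did not differ between the groups (2-sided exact permutation test over all groupings of the 9 libraries, p from 0.357 to 0.913, adjusted p 0.913 for each of 4 measures, with 0.00794 the smallest p that these groups allow). The defining markers of the labelled tissue were present. Mbp, the myelin basic protein gene, reached 24417 CPM or more in every library, and the neuronal nuclear marker Rbfox3 at most 4.82 unscaled CPM, though the cytoskeletal genes Map2 and Tubb3 of the same neuronal list reached 131 and 147 unscaled CPM. The 9 genes of the peripheral Schwann cell list summed to 76.4 to 99.3 unscaled CPM in the knockouts and 89.7 to 101.8 in wild type. Within that list the cadherin gene Cdh19 had 33.7 to 62.9 unscaled CPM, while Pmp2 and Foxd3 had at most 0.0885 and 0.0897. Every library had transcripts of the Y-linked Ddx3y (57.2 to 91.7 unscaled CPM) and a count of 0 for Xist. One knockout library, KO_ON_719856, stood apart. It held Crx, a transcription factor gene of photoreceptors, at 7.47 CPM against 0.569 to 1.06 in the other 4 knockouts, and 13 retina markers summing to 128 unscaled CPM against 28.03 to 34.46 in the other knockouts and 26.9 to 28.4 in wild type. Values without that library are given below for several genes and lists. The wild-type library WT_ON_701297 had the highest summed skeletal muscle markers, 25.6 unscaled CPM against 10.2 to 11.9 in the other wild-type nerves, and wild-type WT_ON_719857 had the lowest mitochondrial and the highest blood cell transcripts of its group.

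Zdhhc9 (ENSMUSG00000036985.11, chrX:48171969-48208878 on the minus strand of GRCm38) was read at 48.6, 34.3, 47.6, 34.4 and 40.8 CPM in knockout libraries KO_ON_48038A7, KO_ON_48118A4, KO_ON_693452, KO_ON_717651 and KO_ON_719856. In wild-type libraries WT_ON_700858, WT_ON_701297, WT_ON_717652 and WT_ON_719857 it was read at 132, 141, 112 and 149 CPM. The highest knockout library lay well below the lowest wild-type library, and every knockout library kept a clear signal. The mean was 41.1 ± 6.90 (SD, n = 5) against 133 ± 16.0 (SD, n = 4) CPM, a log2 fold change of -1.70 (SE 0.13, 95% interval -1.98 to -1.41, edgeR adjusted p 5.44e-04), so that 30.8% of the wild-type level remained. Counts summed per gene do not show whether the remaining transcripts can make protein. Each library's level of the targeted gene was thus on the side that its genotype label gives.

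Apln (ENSMUSG00000037010.7, chrX:48025146-48034853, minus strand), whose product is the ligand of a G protein-coupled receptor, was read at 29.1, 30.0, 33.0, 36.9 and 35.3 CPM in the knockout libraries in the same order. The wild-type libraries had 69.2, 66.3, 56.1 and 76.4 CPM. All 5 knockout values lay below all 4 wild-type values, and the knockout values were close to each other, from 29.1 to 36.9 CPM. The means were 32.9 ± 3.31 (SD, n = 5) and 67.0 ± 8.37 (SD, n = 4) CPM, a log2 fold change of -1.03 (SE 0.11, 95% interval -1.26 to -0.80, edgeR adjusted p 0.00603) or 49.0% of the wild-type level. Non-overlap in this direction occurred for 155 of the 15556 genes, 0.996%. Without the library carrying retinal transcripts Zdhhc9 was at -1.69 (adjusted p 0.00368) and Apln at -1.06 (adjusted p 0.0175), and leaving out any other single library also kept both calls (Apln adjusted p from 0.00314 to 0.0414 over the 9 libraries). Among the 3 knockout and 4 wild-type libraries whose sample number has 6 digits, Apln was at -0.94 with an adjusted p of 0.117 and was no longer called, while Zdhhc9 stayed called (adjusted p 0.0129). The apelin receptor gene Aplnr, looked at after its values were seen, was read at 4.64 ± 1.32 (SD, n = 5) and 4.93 ± 1.92 (SD, n = 4) CPM, a log2 fold change of -0.08 (SE 0.29, edgeR adjusted p 0.971).

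**Figure D2:**
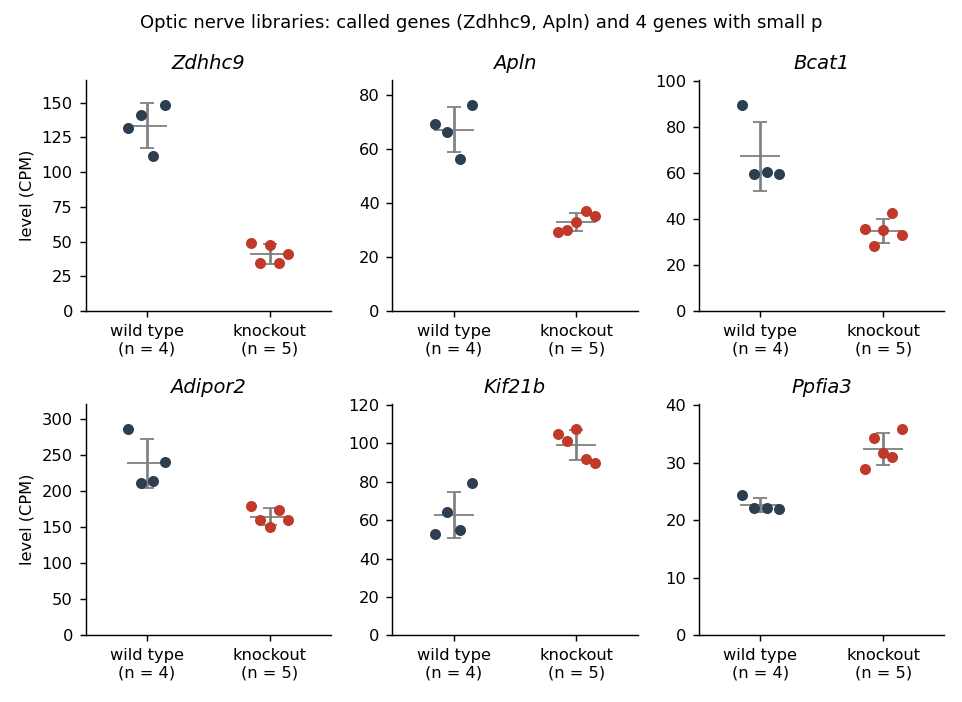
Level in scaled CPM (y axis, linear from 0) of the called genes Zdhhc9 and Apln and of 4 other genes with small p values, 1 point per library, with group mean and SD as grey bars. For each of the 6 genes the 5 knockout points lie on 1 side of the 4 wild-type points. Over all genes tested, 0.996% are separate in this way on the lower side and 1.02% on the higher. Only Zdhhc9 and Apln are called by edgeR.

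Zdhhc9 and Apln are transcribed from the same strand, and the gap between the annotated genes is 137 kb. The bases directly upstream of each annotated gene are shown because these are the start regions of the called genes. CG dinucleotides are in capitals, and the sequence reads 5′ to 3′ on the minus strand of GRCm38.p6 as given by RefSeq. For Zdhhc9 the stretch is chrX:48208879-48208952, cut to the 74 bases that lie upstream of the annotated gene, and for Apln it is chrX:48034854-48035103, 250 bases.
Zdhhc9: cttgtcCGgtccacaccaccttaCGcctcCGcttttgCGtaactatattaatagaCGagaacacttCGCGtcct
Apln: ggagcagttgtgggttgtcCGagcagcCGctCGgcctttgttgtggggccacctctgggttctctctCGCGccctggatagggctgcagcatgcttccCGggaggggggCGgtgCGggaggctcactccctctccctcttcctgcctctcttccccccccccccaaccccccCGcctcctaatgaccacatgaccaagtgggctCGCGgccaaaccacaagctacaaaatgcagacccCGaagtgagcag
The Zdhhc9 stretch holds 7 CG dinucleotides, a number reached by 10.2% of 32851 RefSeq promoter stretches cut to their first 74 bases. Those stretches begin 250 bases before the RefSeq start, so this cut is their part farthest from that start, as it is for Zdhhc9. The Apln stretch holds 12, reached by 33.5% of promoters at its length. The GC box letters GGGCGG, searched on both strands, occur once in the Apln stretch (in 32.7% of promoters of that length) and in no place of the Zdhhc9 stretch (7.58% at that length). The TATA box letters TATAAA, on both strands, occur in neither (12.4% and 4.0% of promoters at the 2 lengths).

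The other genes around Zdhhc9 gave no call. Among the 10 nearest tested genes on each side, 13 of 20 had a negative log2 fold change and the median was -0.04, against 0.01 over all genes and from -0.12 to -0.01 when single libraries were left out. Apln was the 1 called. Sash3, a signalling adaptor of lymphocytes and the nearest tested gene at 10.4 kb, was read at 5.61 ± 2.01 and 6.27 ± 1.05 CPM in knockout and wild type (-0.16, SE 0.24, and -0.38 without library KO_ON_719856). Xpnpep2, an aminopeptidase gene that lies between Sash3 and Apln, was low in all libraries, at 0.902 ± 0.607 against 1.19 ± 0.442 CPM (-0.39, SE 0.52). On the other flank Utp14a, a ribosome biogenesis gene 48.0 kb away, was at -0.04 (SE 0.17), and the transcriptional corepressor gene Bcorl1 at 0.14 (SE 0.11). Beyond Apln, Ocrl, which encodes an inositol phosphatase, was at -0.03 (SE 0.13) and the chromatin remodeller Smarca1 at 0.07 (SE 0.15). Aifm1, which encodes a mitochondrial flavoprotein, had the smallest p of the remaining neighbours, 27.1 ± 2.05 against 23.2 ± 1.33 CPM (0.23, SE 0.08, adjusted p 0.845), with 4 of 5 knockout libraries above every wild-type library.

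**Figure D3:**
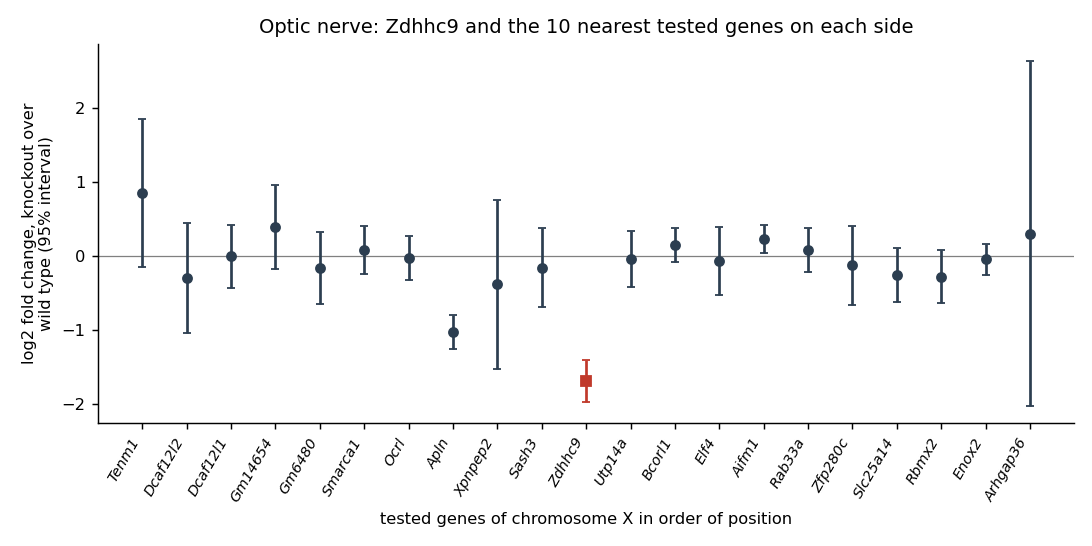
Log2 fold change of knockout over wild-type optic nerve with its 95% interval (y axis) for Zdhhc9 (red square) and the 10 nearest tested genes on each side, in order along chromosome X (x axis, not to scale). Zdhhc9 and Apln lie at -1.70 and -1.03, and the intervals of the genes between and around them, apart from that of Aifm1, span 0.

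Below the 2 called genes, the genes with the next smallest p values are given as values only, since none was called by edgeR in these 9 libraries. On the lower side there were 8, all of which DESeq2 called (adjusted p from 1.17e-05 for Bcat1 to 0.0301 for Slc45a3). Bcat1, the cytosolic branched-chain amino acid aminotransferase, had 35.5, 28.2, 35.3, 42.6 and 33.0 CPM in the knockout libraries and 89.8, 59.5, 60.3 and 59.6 CPM in the wild-type libraries. The groups did not overlap, but wild-type library WT_ON_700858 was far above the rest of its group, and without it the log2 fold change went from -0.95 (SE 0.15, adjusted p 0.232) to -0.78. The mitochondrial isoenzyme gene Bcat2, also looked at after its values were seen, was at 0.08 (SE 0.11). Adipor2, an adiponectin receptor gene, had 179, 161, 150, 174 and 161 CPM in the knockouts and 287, 212, 215 and 241 CPM in wild type, again without overlap (-0.53, SE 0.10, adjusted p 0.385). Over all genes tested, 0.996% had every knockout library below wild type. The remaining values were -0.65 for Arid5b, a DNA-binding regulator, -0.96 for the secretory GTPase gene Rab37 and -0.55 for the tight junction gene Cldn14. The glycosyltransferase gene B3galt5 was at -0.47, the glutathione transferase gene Mgst3 at -0.60 and the solute carrier gene Slc45a3 at -0.43.

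On the higher side there were 10. Ppfia3, a liprin scaffold of presynaptic active zones, had 28.8, 34.4, 31.6, 31.1 and 35.9 CPM in the knockouts and 24.4, 22.1, 22.1 and 21.9 CPM in wild type (0.52, SE 0.09, adjusted p 0.357). Kif21b, a kinesin motor gene, had 105, 101, 108, 91.8 and 89.9 CPM against 52.6, 64.0, 55.0 and 79.3 CPM (0.66, SE 0.12, adjusted p 0.385). In both genes all 5 knockout libraries lay above all 4 wild-type libraries, as they did for 158 genes, 1.02% of those tested. Kirrel3, a synaptic adhesion gene, was at 0.91 (SE 0.17), Unc13a, which primes synaptic vesicles, at 0.57 (SE 0.12) and the semaphorin gene Sema4f at 0.85 (SE 0.17). The Ras GTPase-activating protein gene Rasal1 was at 0.81, the secreted protease gene Adamts1 at 0.59 and the CTP synthase gene Ctps at 0.45. Gabrr2, a GABA receptor subunit gene, and Cacna2d4, a calcium channel subunit gene, are both known from retina, and both were highest in library KO_ON_719856. Gabrr2 was at 1.22 with that library and 1.06 without it, and Cacna2d4 was at 0.81 with it and 0.63 without it. DESeq2 called all 10 of these genes, and no other alternative tried called any of them (adjusted p from 4.79e-04 for Ppfia3 to 0.0252 for Ctps).

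The genes of mature oligodendrocytes, in which Zdhhc9 is best known in the brain, gave no call. In tissue RNA such as this, fewer cells of a type and less RNA per cell cannot be told apart. Of 29 myelin protein genes, all tested, 18 were negative and 11 positive, with a median log2 fold change of -0.08 against 0.01 over all genes. Leaving out single libraries moved that median between -0.16 (without KO_ON_717651) and -0.03. Mbp had 32316, 32473, 36031, 34132 and 24417 CPM in the knockouts and 31759, 38205, 32067 and 38574 CPM in wild type. These ranges overlapped (-0.14, SE 0.14, adjusted p 0.872), and library KO_ON_719856 was the lowest of the 9. The oligodendrocyte basic protein gene Mobp was at -0.20 (SE 0.16) and the surface glycoprotein gene Mog at -0.20 (SE 0.12). Without library KO_ON_719856 Mbp was at -0.06, Mobp at -0.11 and Mog at -0.13, and the median of the list was -0.05. Mag, Cnp and Mal, which encode an adhesion molecule, a phosphodiesterase and a raft proteolipid of myelin, lay at 0.00, 0.01 and 0.03.

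Within the myelin list 4 genes were lower and 1 was higher at an unadjusted p under 0.05, against 2.64% and 2.83% of all genes. Pmp22, a tetraspan membrane protein gene, had 210, 197, 210, 197 and 209 CPM in the knockouts and 267, 268, 233 and 248 CPM in wild type. It was the 1 myelin gene whose groups did not overlap (-0.31, SE 0.07, adjusted p 0.662). Over all genes tested, 0.996% had every knockout library below wild type and 1.02% had every one above. DESeq2 called it (adjusted p 0.00288), and its 5 knockout values lay between 197 and 210 CPM. The other 3 were Anln, an anillin gene of myelin septin filaments (-0.49, SE 0.16), and the septin genes Sept2 (-0.26, SE 0.10) and Sept7 (-0.35). Opalin, a transmembrane protein of mature oligodendrocytes, went the other way, with 155, 140, 181, 135 and 140 CPM against 119, 104, 82.8 and 147 CPM (0.40, SE 0.15, adjusted p 0.845). The wild-type library WT_ON_719857 lay within the knockout range for Opalin, and the other 3 lay below it.

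Mature oligodendrocytes fall into states with different gene sets, and 2 of these sets were compared. Of 7 genes of the state marked by Klk6, 4 were negative, and the median was -0.22. At an unadjusted p under 0.05, 3 were lower, against 2.64% of all genes. Klk6, a secreted serine protease gene, had 262, 254, 283, 240 and 299 CPM in the knockouts and 367, 391.95, 310 and 357 CPM in wild type. No knockout value reached the lowest wild-type value, and the log2 fold change was -0.41 (SE 0.10, edgeR adjusted p 0.649, DESeq2 adjusted p 0.00958). Mgst3 had 19.8, 14.4, 20.8, 21.3 and 16.5 CPM against 24.0, 31.2, 28.6 and 28.8 CPM, also without overlap (-0.60, SE 0.13, edgeR adjusted p 0.562, DESeq2 adjusted p 0.0187). Non-overlap in this direction occurred for 0.996% of all genes tested. Hopx, a homeodomain-only protein gene, was at -0.42 (SE 0.14), but moved to -0.26 without wild-type library WT_ON_719857, its highest. Anxa5, a phospholipid-binding annexin and an abundant member of the list, was at 0.02 (SE 0.11). The list's median moved to -0.38 without knockout library KO_ON_717651, to -0.14 without wild-type library WT_ON_719857 and to -0.16 without KO_ON_719856, and it was -0.13 among the libraries with 6-digit sample numbers.

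**Figure D4:**
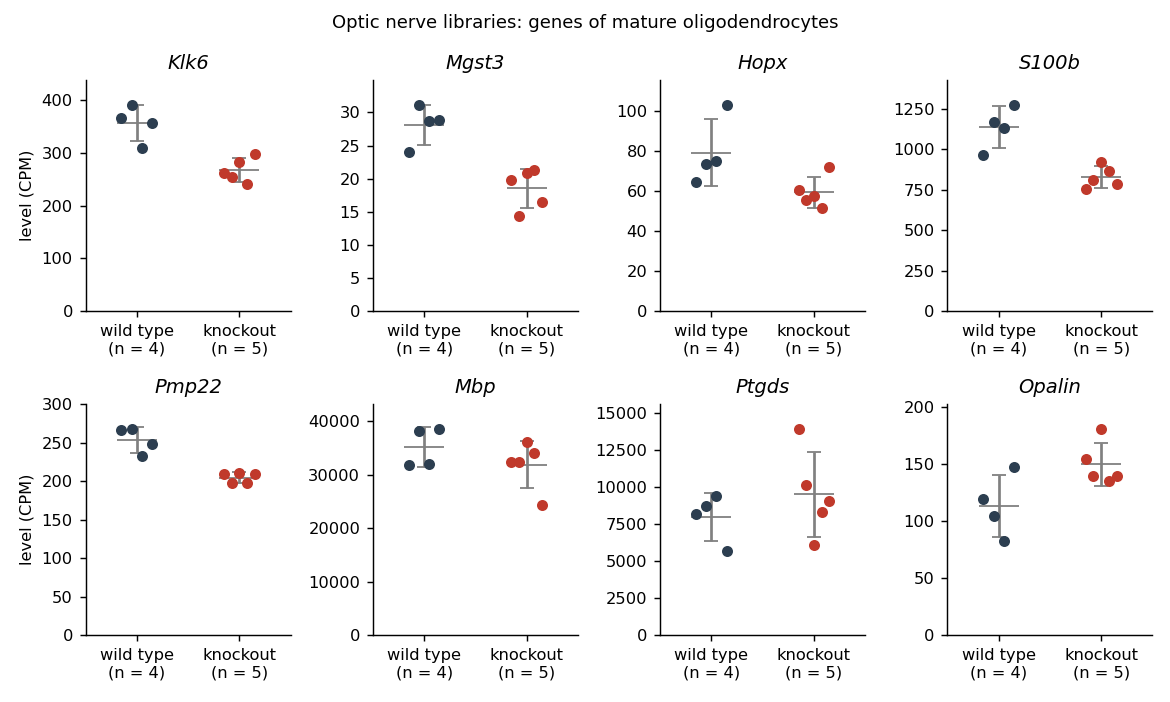
Level in scaled CPM (y axis, linear from 0) of 8 genes of mature oligodendrocytes, 1 point per library, with group mean and SD as grey bars. Klk6, Mgst3, S100b and Pmp22 have all 5 knockout points below all 4 wild-type points, as have 0.996% of all genes tested. The groups overlap for Hopx, Mbp, Ptgds and Opalin. None of the 8 is called by edgeR.

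Of 12 genes of the state marked by Ptgds and Apod, 6 were negative and 6 positive, with a median of -0.01. S100b, a calcium-binding protein gene of oligodendrocytes and astrocytes, had 754, 812, 922, 865 and 789 CPM in the knockouts and 968, 1172, 1136 and 1278 CPM in wild type. The groups were separate by a gap smaller than the spread within either group, and the log2 fold change was -0.46 (SE 0.10, edgeR adjusted p 0.581, DESeq2 adjusted p 0.00328). Apod, the apolipoprotein D gene, also had all 5 knockout values under the lowest wild-type value (-0.17, SE 0.09, adjusted p 0.845). Non-overlap in this direction occurred for 0.996% of all genes. Ptgds, the prostaglandin D synthase gene, varied widely within both groups, from 6097 to 13916 CPM in the knockouts and from 5681 to 9368 CPM in wild type (0.25, SE 0.22). Trf, the iron carrier transferrin, was at -0.22 (SE 0.11).

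Earlier stages of the lineage and its transcription factors showed no shift of their medians. Newly formed oligodendrocyte genes had 6 negative and 9 positive members of 15 (median 0.05), precursor genes 5 and 7 of 12 (0.05), and lineage transcription factors 8 and 8 of 16 (-0.004). Enpp6, a choline phosphodiesterase that marks cells entering myelination, was at -0.34 (SE 0.13), whereas Kif19a, a kinesin gene, was at 0.45 (SE 0.13) and the zinc transporter gene Tmem163 at 0.37 (SE 0.15), none of them called. Pdgfra, which encodes a growth factor receptor carried by precursor cells, lay at -0.20 (SE 0.09), and Gpr17, an orphan receptor of cells about to differentiate, at -0.06 (SE 0.16). The transcription factor genes Myrf, Sox10 and Olig2, which drive myelin gene transcription and lineage identity, lay at 0.13, 0.14 and 0.16 with SE of 0.12, 0.12 and 0.19.

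Lipid synthesis genes, which supply the cholesterol and galactolipids of myelin, were mostly on the lower side without a call. The list for making and taking up cholesterol had 22 negative members of 24 (median -0.17), against 47.2% of all genes. At an unadjusted p under 0.05, 7 members were lower, against 2.64% of all genes. Idi1, an isomerase of the mevalonate pathway, had 102, 156, 131, 148 and 88.4 CPM in the knockouts and 151, 164, 175 and 209 CPM in wild type (-0.48, SE 0.17, adjusted p 0.845). The knockout library KO_ON_48118A4 overlapped the wild-type range, and wild-type library WT_ON_719857 was the highest of all. Sc5d, Msmo1, Nsdhl and Hmgcs1, enzymes of the same pathway, were at -0.41, -0.38, -0.36 and -0.34. Only for Nsdhl did all 5 knockout values lie below wild type, as they did for 0.996% of all genes. Without wild-type library WT_ON_719857 the list's median moved from -0.17 to -0.04, and that library had the highest sum over the list, 4563 unscaled CPM against 3523 to 3819 in the other wild-type nerves and 2795 to 3672 in the knockouts. Of 24 genes of fatty acid and myelin lipid synthesis 20 were negative (median -0.14, and -0.05 without library WT_ON_719857). Ugt8a, which makes the galactosylceramide of myelin, was at -0.44 (SE 0.16), the acetyl-CoA synthetase gene Acss2 at -0.27 (SE 0.08) and the elongase gene Elovl5 at -0.33 (SE 0.11).

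None of the other palmitoylation genes was called, in either direction, next to the fall of Zdhhc9. Of 31 genes for other DHHC enzymes, their partners and the enzymes that remove palmitate, 30 were tested, 19 were negative and 11 positive, and the median was -0.04. Golga7, which encodes the partner protein of ZDHHC9, had 280, 305, 331, 358 and 239 CPM in the knockouts and 312, 386, 352 and 390 CPM in wild type. The ranges overlapped (-0.25, SE 0.12, adjusted p 0.845). Zdhhc20, a plasma membrane palmitoyltransferase gene, was at -0.41 (SE 0.15) and Selenok, a selenoprotein that works with another DHHC enzyme, at -0.18 (SE 0.08). All 5 knockout libraries lay below all wild-type libraries for Selenok, the 1 member of the list for which they did, against 0.996% of all genes tested.

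Genes of the node of Ranvier and the paranode, where axon and myelin loops meet, were positive in 13 of 18 cases (median 0.12). Nfasc, which encodes the glial and axonal neurofascins, had 894, 921, 1018, 1040 and 835 CPM in the knockouts and 722, 776, 557 and 842 CPM in wild type, so that 4 of 5 knockout values topped the wild-type range (0.38, SE 0.13, adjusted p 0.845). Its axonal partner Cntnap1 was at 0.33 (SE 0.12), the nodal sodium channel gene Scn8a at 0.53 (SE 0.21) and the perinodal link protein gene Hapln2 at -0.27 (SE 0.13). Markers of neurons and retinal ganglion cells were also mostly on the higher side, with 10 of 13 tested members positive, a median of 0.33 and sums of 295 to 460 unscaled CPM in the knockouts and 320 to 481 in wild type. The part of neuronal RNA in the node values was not tested. Without library KO_ON_719856 the medians were 0.07 for the node genes and 0.21 for the neuronal markers. The node median was 0.20 without wild-type library WT_ON_719857, and the neuronal median ran from 0.11 (without WT_ON_700858) to 0.49 when single libraries were left out. Of the 3 negative neuronal markers, Map2 was at -0.04 (SE 0.19) and the growth cone gene Stmn2 at -0.09 (SE 0.43). Tubb3, a neuronal tubulin gene and the third, had 106, 74.0, 97.5, 112 and 105 CPM in the knockouts and 136, 149, 143 and 123 CPM in wild type. Its groups did not overlap (-0.48, SE 0.12, edgeR adjusted p 0.662, DESeq2 adjusted p 0.0458), which in this direction held for 0.996% of all genes tested.

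Among the other glia, astrocyte genes were close to the median of all genes, with 8 of 14 negative and a median of -0.05. Gfap, the astrocyte intermediate filament gene, was at 0.02 (SE 0.14) and the water channel gene Aqp4 at -0.19 (SE 0.17). Glul, the glutamine synthetase gene, had 1656, 1501, 1570, 1969 and 1745 CPM in the knockouts and 1976, 2027, 2188 and 2149 CPM in wild type. The groups were separate by less than the spread within either of them (-0.30, SE 0.10, adjusted p 0.845). Separation in this direction occurred for 0.996% of all genes tested. Of 17 microglial identity genes 6 were negative and 11 positive, with a median of 0.03. P2ry12, a purinergic receptor gene, was the lowest of them at -0.40 (SE 0.13). Without library KO_ON_719856 the microglial median turned to -0.11.

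Immune activation lists lay on the higher side, in part through 1 library. All 15 genes of damage-associated microglia were positive (median 0.29), but none reached an unadjusted p under 0.05. Their summed level was 13488 unscaled CPM in knockout library KO_ON_719856 against 6297 to 8082 in the other knockouts and 6365 to 7301 in wild type, and without that library the median was -0.06. Apoe, the lipoprotein gene that dominates this sum, had 10723 CPM there and 4655 to 6001 CPM in the other knockouts, and the lysosomal inhibitor gene Cst7 had 9.20 CPM there and at most 1.49 CPM in the others. Interferon-stimulated genes were positive in 14 of 15 cases with a median of 0.35, which was 0.19 without library KO_ON_719856 and 0.53 without wild-type library WT_ON_701297. Irf7, a transcription factor of that response, had 27.8, 26.2, 33.5, 18.4 and 55.1 CPM against 21.9, 26.3, 14.8 and 15.6 CPM (0.71, SE 0.29, adjusted p 0.845), with overlapping groups, and was at 0.43 without KO_ON_719856. The chemokine gene Cxcl10 was at 1.52 (SE 0.51, adjusted p 0.845), with 82.9 CPM in library KO_ON_719856 and 12.6 to 27.7 CPM in the other knockouts, and at 0.76 without that library. Antigen presentation genes were positive in 11 of 12 cases (median 0.24, and 0.12 without that library).

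Immediate early genes, which respond within minutes to stimulation or handling, were positive in 12 of 13 cases with a median of 0.46, and from 0.24 to 0.54 under all alternatives tried. Over all genes 47.2% were negative. The list summed to 360 to 523 unscaled CPM in the knockouts and to 296 to 412 in wild type, so the groups overlapped. Jun had 159, 159, 148, 150 and 153 CPM in the knockouts and 116, 123, 128 and 142 CPM in wild type. The groups did not overlap (0.27, SE 0.08, adjusted p 0.845). Jun was the 1 member of the list with every knockout library above wild type, against 1.02% of all genes tested. Fos was at 0.55 (SE 0.23), with library KO_ON_693452 at 45.1 CPM and the other knockouts at 21.3 to 26.6 CPM. The 17 genes of endoplasmic reticulum stress had a median of -0.004.

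All 13 messenger RNAs encoded by the mitochondrial genome were on the lower side, with a median of -0.31, and none was called. At an unadjusted p under 0.05, 5 of them were lower, against 2.64% of all genes. mt-Cytb, a complex III subunit gene, had 3551, 3417, 4274, 4166 and 3513 CPM in the knockouts and 4892, 4899, 4650 and 4004 CPM in wild type. Of these, 2 knockout values overlapped the wild-type range through library WT_ON_719857, the lowest wild-type library (-0.29, SE 0.11, adjusted p 0.845). The 73 nuclear genes of oxidative phosphorylation had a median of -0.004, and 77 cytosolic ribosomal protein genes a median of -0.01. The 13 transcripts summed to 26912 to 40983 unscaled CPM in the knockouts and to 33392 to 43871 in wild type, so the groups overlapped as a whole.

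**Figure D5:**
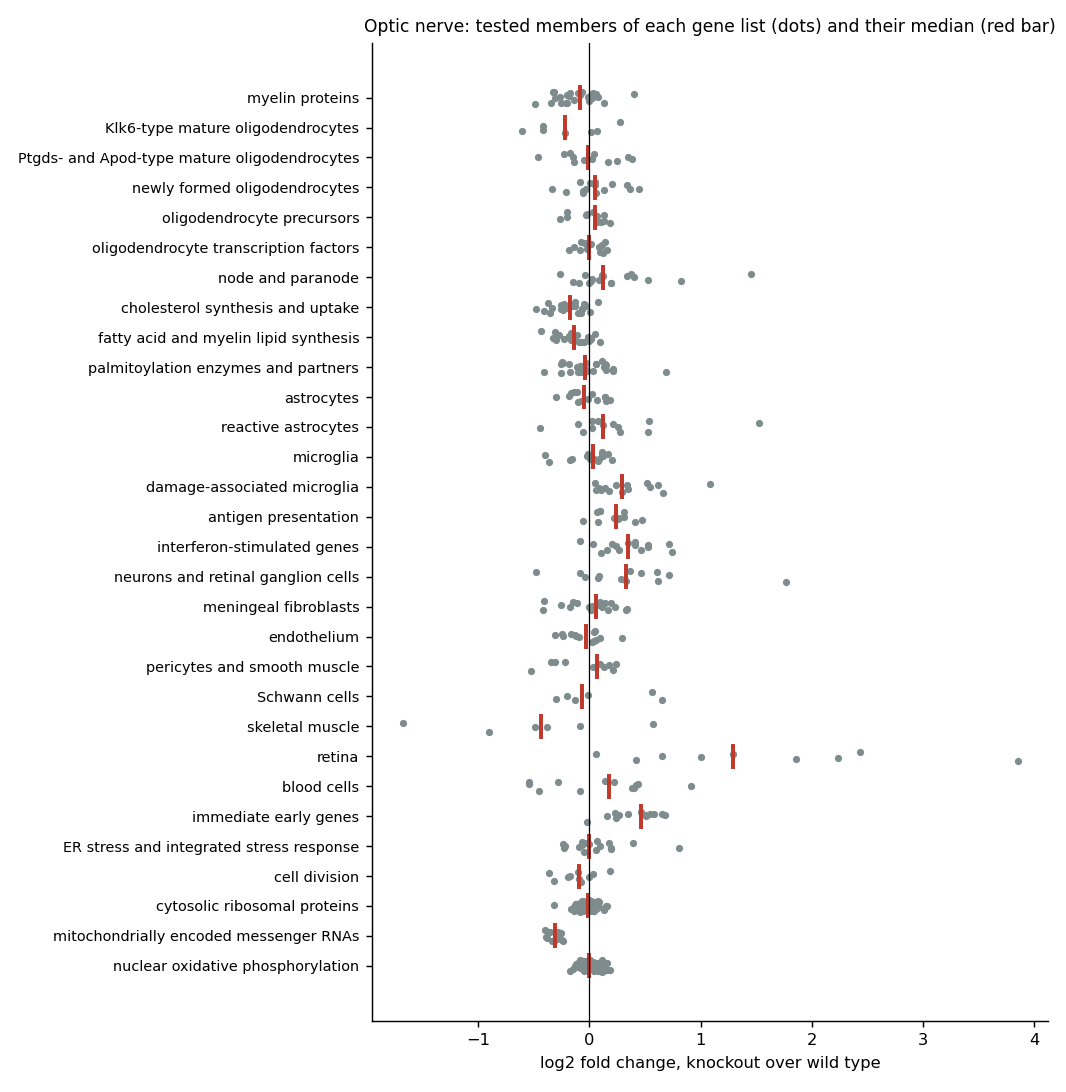
Log2 fold change of knockout over wild-type optic nerve (x axis) for the tested members of 30 gene lists (rows), each dot a gene, with the median of each list as a red bar. Cholesterol synthesis and mitochondrial transcripts lie mostly left of 0, the damage-associated, interferon and immediate early lists lie mostly right of 0, and the retina list has a median of 1.29 that falls to 0.36 without library KO_ON_719856.

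In the corpus callosum libraries of the same knockout 6 of 15519 tested genes were called (0.0387%), Zdhhc9 and 5 others, and these 5 were read in the optic nerve beside their callosum values. Zdhhc9 was at -1.95 in callosum and -1.70 in nerve, and Apln at -0.83 and -1.03. Slc45a3, which was lower in all 5 knockout nerves than in any wild-type nerve, was at -0.43 in nerve (SE 0.10, adjusted p 0.562) and -0.87 in callosum. Such separation occurred for 0.996% of all genes tested in nerve. Svep1, an extracellular matrix protein gene, had 24.3, 17.4, 12.9, 16.6 and 14.4 CPM in the knockout nerves and 10.9, 13.3, 10.4 and 8.34 CPM in wild type (0.67, SE 0.19, adjusted p 0.845), against 1.63 in callosum. All knockout nerves but library KO_ON_693452 exceeded the highest wild-type nerve for Svep1. Kit, a receptor tyrosine kinase gene, was at 0.35 (SE 0.13) in nerve and 0.95 (SE 0.12) in callosum. The anion transporter gene Slco3a1 was at -0.21 (SE 0.10) and -0.81 (SE 0.11). These 5 genes were picked by their callosum call, which favours large callosum values, so the pairs are no test of a weaker effect in nerve. The callosum medians were -0.42 for the 29 myelin genes and -0.42 for the cholesterol genes, against -0.08 and -0.17 in nerve. Negative callosum medians were not particular to these lists. Microglial genes were at -0.35 there (17 of 17 negative) and cytosolic ribosomal protein genes at -0.23 (76 of 77 negative). Nuclear genes of oxidative phosphorylation were at 0.001 in callosum, and neuronal markers at 0.65 with 1 of 13 negative. Other lists had medians of opposite sign in the tracts, at -0.64 in callosum and 0.35 in nerve for interferon-stimulated genes, -0.54 and 0.24 for antigen presentation, and 0.13 and -0.31 for the mitochondrially encoded transcripts. Whether the list medians differed between the tracts was not tested.

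Whether the knockout effect differed between the tracts was tested as an interaction over all 20 libraries. No gene passed (0 of 16440, 0%; 1123 genes or 6.83% at an unadjusted p under 0.05), and DESeq2 and limma-voom also called 0. The named genes with the smallest p were Bcl3, Ifi27l2a, Cd300ld3, Nudt13 and Bcat1. Bcat1, lower in every knockout nerve, was at -0.15 (SE 0.11) in callosum, a difference of -0.79 (SE 0.19, unadjusted p 5.48e-04, adjusted p 0.725). Ifi27l2a, an interferon-inducible gene, was at 0.12 (SE 0.21) in nerve and -1.68 (SE 0.29) in callosum, and it was called only when knockout nerve KO_ON_717651 was left out. The differences were 0.26 (SE 0.17) for Zdhhc9, -0.19 (SE 0.17) for Apln, 0.65 (SE 0.21) for Pmp22 and 0.89 (SE 0.29) for Hapln2, with adjusted p from 0.725 to 0.837 over these 4. Of the other genes called in callosum, Svep1 was at -0.94 (SE 0.24), Kit at -0.59 (SE 0.20), Slco3a1 at 0.61 (SE 0.16) and Slc45a3 at 0.44 (SE 0.16). Their unadjusted p in this edgeR test ran from 7.67e-04 to 0.0114, with an adjusted p of 0.725 for each. These genes were picked by their call in callosum libraries that also enter this test, which favours small p. Their unadjusted p is therefore no evidence of a difference between the tracts.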

How the data were processed

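Optic nerve libraries of Zdhhc9 knockout (5) and wild-type (4) mice were compared. The authors deposited 1 table of estimated counts per gene for all 20 libraries, not scaled to a common total; per the submitters' processing notes the build is mm10, while of the quantifier's version, the annotation and the summing to genes each is not given in the sources used here. Every column matched 1 sample label (0 columns of no sample), and no pair of libraries was identical. Counts were rounded and tested with edgeR 4.0.16 (R 4.3.3): TMM scaling, filterByExpr (minimum count 10, minimum total 15), quasi-likelihood test, Benjamini-Hochberg adjustment over all genes tested, threshold 0.05. DESeq2 1.42.0, limma 3.58.1 and sva 3.50.0 served the alternatives. Symbols and coordinates came from a GRCm38 annotation matched on stable gene ID (46005 of 46517 genes), promoter sequences from RefSeq. Callosum libraries were fitted separately, and the difference between tracts in 1 fit of 20 libraries. The scripts were tested on simulated data.

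Members, gene lists and tests were chosen with earlier results of these data known. Named genes were Zdhhc9, called genes filled to 10 per direction by smallest p (mean log2 CPM of at least 1, no predicted genes or pseudogenes), up to 4 members per list with the smallest p and the most abundant one, fixed oligodendrocyte and glial genes, and the 5 nearest tested neighbours of Zdhhc9 on each side; Aplnr and Bcat2, and Sept7 in the myelin list, were added after their values were seen. No protein sequence is shown, and some genes that the rule names are not reported here. Alternatives covered scaling, filtering, DESeq2, limma-voom, covariates, a surrogate variable, sample numbers and leaving out each library.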

Additional observations from a re-analysis of the deposited data

Results flagged for a closer look

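In groups of 4 or 5 libraries the highest or lowest library was compared with the rest of its group by Dixon's criterion, over 288 groups of values (genes described, list sums and library measures). For independent, normally distributed values about 1 in 20 groups would pass the criterion. That rate does not apply here, since some genes were tested alone and again within a list sum. Of the 288 groups 25 were past the criterion, of which 10 fell on knockout library KO_ON_719856 and 4 on wild-type library WT_ON_719857. The part of any library's handling in these values was not tested.

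Knockout library KO_ON_719856 stood apart from the other 4 knockout nerves in retinal transcripts. It had the photoreceptor transcription factor gene Crx at 7.47 CPM (others 0.569 to 1.06). Its retina markers summed to 128 unscaled CPM (28.03 to 34.46), Cacna2d4 was at 35.1 CPM (19.4 to 22.9) and the synaptotagmin gene Syt1 at 57.4 CPM (3.44 to 18.9). The same library had the highest sum over the damage-associated microglia list, 13488 unscaled CPM (6297 to 8082). Of that list, Apoe was at 10723 CPM (4655 to 6001), Cst7 at 9.20 CPM (0.683 to 1.49) and the integrin gene Itgax at 15.2 CPM (2.24 to 3.95). Apoe is also in the oligodendrocyte list of Ptgds and Apod. Cxcl10, from a list of reactive astrocyte genes, was at 82.9 CPM (12.6 to 27.7). Its 10 most abundant genes took 14.3% of all counts, against 11.4 to 12.01% in the others.

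Of the other knockout libraries, KO_ON_48118A4 had the highest Trf (4760 CPM, others 4325 to 4416), KO_ON_693452 the highest Fos (45.1 CPM, others 21.3 to 26.6), and KO_ON_717651 the lowest Ifi27l2a (12.7 CPM, others 25.5 to 27.7). Among wild-type libraries, WT_ON_700858 was the highest for Bcat1 (89.8 CPM, others 59.5 to 60.3), Ppfia3 (24.4 CPM, others 21.9 to 22.1) and the transcription factor gene Elf4 (9.01 CPM, others 5.25 to 5.82). Library WT_ON_701297 was the highest for the muscle oxygen carrier gene Mb (3.15 CPM, others 0.376 to 0.469), the summed skeletal muscle list (25.6 unscaled CPM, others 10.2 to 11.9) and Cst7 (1.84 CPM, others 0.939 to 1.03). Library WT_ON_717652 was the highest for Gabrr2 (4.05 CPM, others 3.14 to 3.27) and the immediate early gene Egr1 (24.9 CPM, others 8.05 to 8.64). Library WT_ON_719857 was the lowest for mt-Atp6 (3286 CPM, others 4084 to 4151), for the summed mitochondrial list (33392 unscaled CPM, others 42207 to 43871) and for the fibroblast proteoglycan gene Lum (25.2 CPM, others 46.8 to 49.3), and the highest for summed blood cell genes (4147 unscaled CPM, others 1411 to 1566).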

How the results depend on the processing

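Under 23 alternatives the count of called genes in optic nerve was 2 in all but 4: DESeq2 called 35, the joint fit of 20 libraries 3 (adding Bcat1), a retina marker covariate chosen after the data were seen 3 (adding the predicted gene Gm4737), and the libraries with 6-digit sample numbers alone (3 knockout, 4 wild type) 1, where Apln was at -0.94 with an adjusted p of 0.117. The cause of these differences was not tested; the last setting has fewer samples. Leaving out each library in turn gave 2 to 2 genes. Of 106 described genes that were not called, 22 were called somewhere, all by DESeq2 or the joint fit, and 16 changed sign in some setting (59 of 2436 values); 14 of 32 list medians also changed sign somewhere. The difference between tracts gave 0 calls, and 0 to 1 when single nerve libraries were left out, the 1 being Ifi27l2a without knockout library KO_ON_717651.

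No paired analysis was possible for knockout against wild-type nerve because these groups share no sample number. Across tracts 4 numbers occur in both tissues, and a fit of the difference with the replicate block (limma-voom, block correlation -0.112) called 0 genes, as the fit without it did. With 5 and 4 libraries and a median SE of 0.13, small differences and low genes stay under the detection limit of the test. Some larger differences, such as Gabrr2 at 1.22 and Bcat1 at -0.95, were also not called by edgeR in the 9 nerve libraries.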

Other observations

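Vessel and sheath cells of the nerve were read from lists not described above, and none of their genes was called. Of 14 endothelial genes 7 were negative and 7 positive (median -0.03), and of 10 genes of pericytes and smooth muscle 4 were negative and 6 positive (median 0.06). Of 18 meningeal fibroblast genes 7 were negative and 11 positive (median 0.06, and -0.09 without wild-type library WT_ON_719857). The matrix proteoglycan genes Dcn (-0.41, SE 0.17) and Lum (-0.42, SE 0.18) were the 2 members lower at an unadjusted p under 0.05, against 2.64% of all genes. No knockout value of either lay below the wild-type range. The transporter genes Slc6a13 (0.34, SE 0.23) and Slc22a6 (0.33, SE 0.25) went the other way. Summed over the list, meningeal levels ran from 4711 to 8037 unscaled CPM in the knockouts and from 3970 to 7110 in wild type. Blood cell genes varied more between libraries than between groups, from 1524 to 5205 unscaled CPM in the knockouts and from 1411 to 4147 in wild type. Of 10 cell division genes 8 were negative, with a median of -0.10 and sums of 108 to 120 unscaled CPM in the knockouts and 114 to 120 in wild type.

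Adipor2 and Cacna2d4, chosen for comparison after their values were seen, lie end to end on chromosome 6 of GRCm38, Cacna2d4 on the plus strand from 119236526 to 119352407 and Adipor2 on the minus strand from 119353150 to 119417704. Neither was called by edgeR and both were called by DESeq2, in opposite directions. Adipor2 had all 5 knockout values under the wild-type range (165 ± 11.6 SD, n = 5, against 239 ± 34.6 SD, n = 4, CPM), and Cacna2d4 was higher in all 5 (24.0 ± 6.37 SD, n = 5, against 13.7 ± 2.01 SD, n = 4, CPM). Over all genes tested, 0.996% were separate in the lower direction and 1.02% in the higher. In callosum Adipor2 was at -0.65 (SE 0.23) and Cacna2d4 at 0.03 (SE 0.17).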
